A study of Mus musculus with 9 samples.

Results

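The p53 target genes described here are 32 genes, matched by symbol in the deposited tables of mouse liver RNA sequencing, of 57010 genes listed and 25394 with a count in any library. All 32 passed the filter on low counts and stood among the 13686 genes tested. The 9 libraries came from livers of male BALB/c mice, with 3 libraries in each of the groups AT3, CPT and CON. AT3 and CPT carry one and the same treatment label, acute liver injury brought on by the DNA-crosslinking platinum drug cisplatin, while CON livers received no treatment. AT3 is not spelled out in the labels. Atractylenolide III, a sesquiterpene lactone of plants, appears in the title of the series. The sources used here give no dose, route or time for either agent, nor do they say whether libraries of a group came from separate animals, so the p-values below measure the spread between libraries, which may be technical.

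The transcription factor p53 is held low in resting cells by MDM2, which marks it for degradation, and by MDM4, which blocks its activity. DNA damage activates kinases that free p53 from both. It then binds DNA elements made of paired half-sites and raises genes that halt the cell cycle, repair DNA, trigger apoptosis or restrain growth, and also Mdm2 and Ppm1d, which switch the response off again. In liver, whose hepatocytes rarely divide, Cdkn1a is among its best known targets after genotoxic drugs.

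The libraries held 26709886 to 28297486 estimated counts in AT3, 23762623 to 28480479 in CPT and 21485021 to 26476936 in CON. The members together took 0.16 to 0.176% of the counts in AT3, 0.146 to 0.171% in CPT and 0.0193 to 0.0278% in CON. The first principal component, with 76.9% of the variance, separated AT3 and CPT from CON. On it CPT replicate 3, at -52.4, lay within the AT3 range of -53.8 to -52, while the other CPT libraries were at -35.5 and -39.9. On the second, with 5.36%, CPT replicate 3 lay at -7.41, between the other CPT libraries at -29.5 and -27.8 and the AT3 libraries at 18.1 to 21. Transcripts of the mitochondrial genome took 9.79 to 11.4% of counts in AT3, 11.2 to 16.3% in CPT and 25.8 to 36.8% in CON.

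Levels are given as CPM, counts scaled to 1000000 per TMM-adjusted library, unless TPM, which is also scaled to gene length, is named. At these depths 3 counts correspond to 0.094 to 0.169 CPM. Genes were called at an adjusted p under 0.05 in edgeR's quasi-likelihood test with Benjamini-Hochberg adjustment over all genes tested, and every adjusted p below comes from it. Log2 fold changes carry their standard error (SE).

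The promoter sequences show how the members relate to the element that p53 binds. RefSeq windows of GRCm38.p6, from 250 bases before to 50 after a transcript start, were at hand for 25 members, in 36 windows. They were not at hand for Ddb2, Perp, Rrm2b, Tnfrsf10b, Trp53inp1, Xpc and Zmat3. The 10-base p53 half-site consensus, which is its own reverse complement and so covers both strands, was found in windows of 10 of the 25 members (40.0%) and of 2582 of all 27025 genes with windows (9.55%). Counted by window, it was found in 11 of 36 (30.6%) for the members and 2745 of 32851 (8.36%) for all genes. A pair of adjacent half-sites with at most 1 mismatch was found in 2 members, Cdkn1a and Ccng1, and in 29 of all 27025 genes (0.107%). These pairs stand below in capitals with 10 bases on either side. The Cdkn1a pair lay 51 to 32 bases before the upper of its 2 RefSeq starts, which are 2790 bases apart, and the Ccng1 pair 195 to 176 bases before its start.
Cdkn1a, chr17:29090918-29090957, plus strand: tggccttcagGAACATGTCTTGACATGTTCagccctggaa
Ccng1, chr11:40755452-40755491, minus strand: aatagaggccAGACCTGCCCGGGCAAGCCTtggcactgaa
Single half-sites, in capitals below, are shown for a regulator and a cell cycle gene that were higher in CPT, and for a gene that was lower and one that was not called.
Mdm2, chr10:117710925-117710954, minus strand: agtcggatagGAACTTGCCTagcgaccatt
Gadd45a, chr6:67037428-67037457, minus strand: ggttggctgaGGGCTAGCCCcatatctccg
Trp53, chr11:69580274-69580303, plus strand: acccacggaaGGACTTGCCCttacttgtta
Sesn1, chr10:41887256-41887285, plus strand: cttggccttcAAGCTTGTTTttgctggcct
Aen, Ei24, Polk and Ppm1d held half-sites as well. Those of Polk and Sesn1 lay only in windows of starts farther inside the gene, chr13:96519187 and chr10:41887439. The windows of their other starts, chr13:96542579 and chr10:41810574, held none. Cdkn1a held a further half-site, 73 to 64 bases before its upper start. With the half-site 51 to 42 bases before that start, it formed 2 exact half-sites with a spacer of at most 13 bases. Such a full site was found in 1 of the 25 members (4.0%) and in 20 of all 27025 genes (0.074%). The windows of Btg2, Phlda3, Eda2r and Psrc1 held none, and these genes had the largest fitted log2 fold changes of the members in CPT against CON. Of the 10 members with a half-site, 8 were called higher and 1 lower in CPT against CON, with a median log2 fold change of 2.22. Of the 15 whose windows held none, 14 were called higher and 1 lower, with a median of 1.86. Those 14 include Eda2r, Psrc1 and Ak1, which passed the filter on low counts only through AT3 and CPT. The shares of all genes tested were 30% higher and 30.8% lower. A match is a description of letters in these windows, not evidence of binding, and p53 elements also lie in introns and farther upstream.

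**Figure D1:**
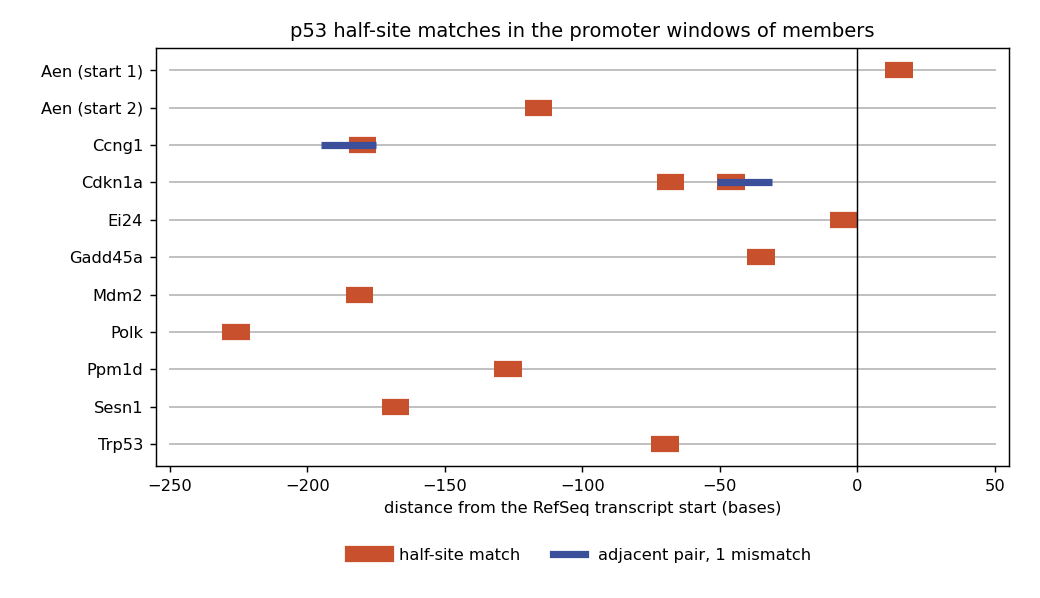
Position of p53 half-site matches (orange) and of adjacent pairs with 1 mismatch (blue) in bases from the RefSeq transcript start, for the members with a match; each grey line is a window from 250 bases before to 50 after the start. Only Cdkn1a and Ccng1 hold a pair, and Aen is drawn for each of its starts, which share 1 match.

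CPT against CON asks what livers injured by cisplatin show beside untreated ones. Of the 32 members, 26 rose, 2 fell and 4 were not called. Across all genes tested 30% rose and 30.8% fell. The median log2 fold change of the members was 1.87, against -0.02 over all genes tested. By at least 1 on the log2 scale, 25 members rose beside 13% of all genes tested, and by at least 2, 14 members beside 3.89%. The libraries did not overlap for 26 members that were higher and 3 that were lower, where this held for 31.5% and 32.7% of all genes tested. In 29 members every CON library lay over the filter's 0.376 CPM. Eda2r, Psrc1 and Ak1 did not, and passed through the groups in which they were high. All 3 are among the 26, and the filter favoured a difference in them, though it did not force a call.

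**Figure D2:**
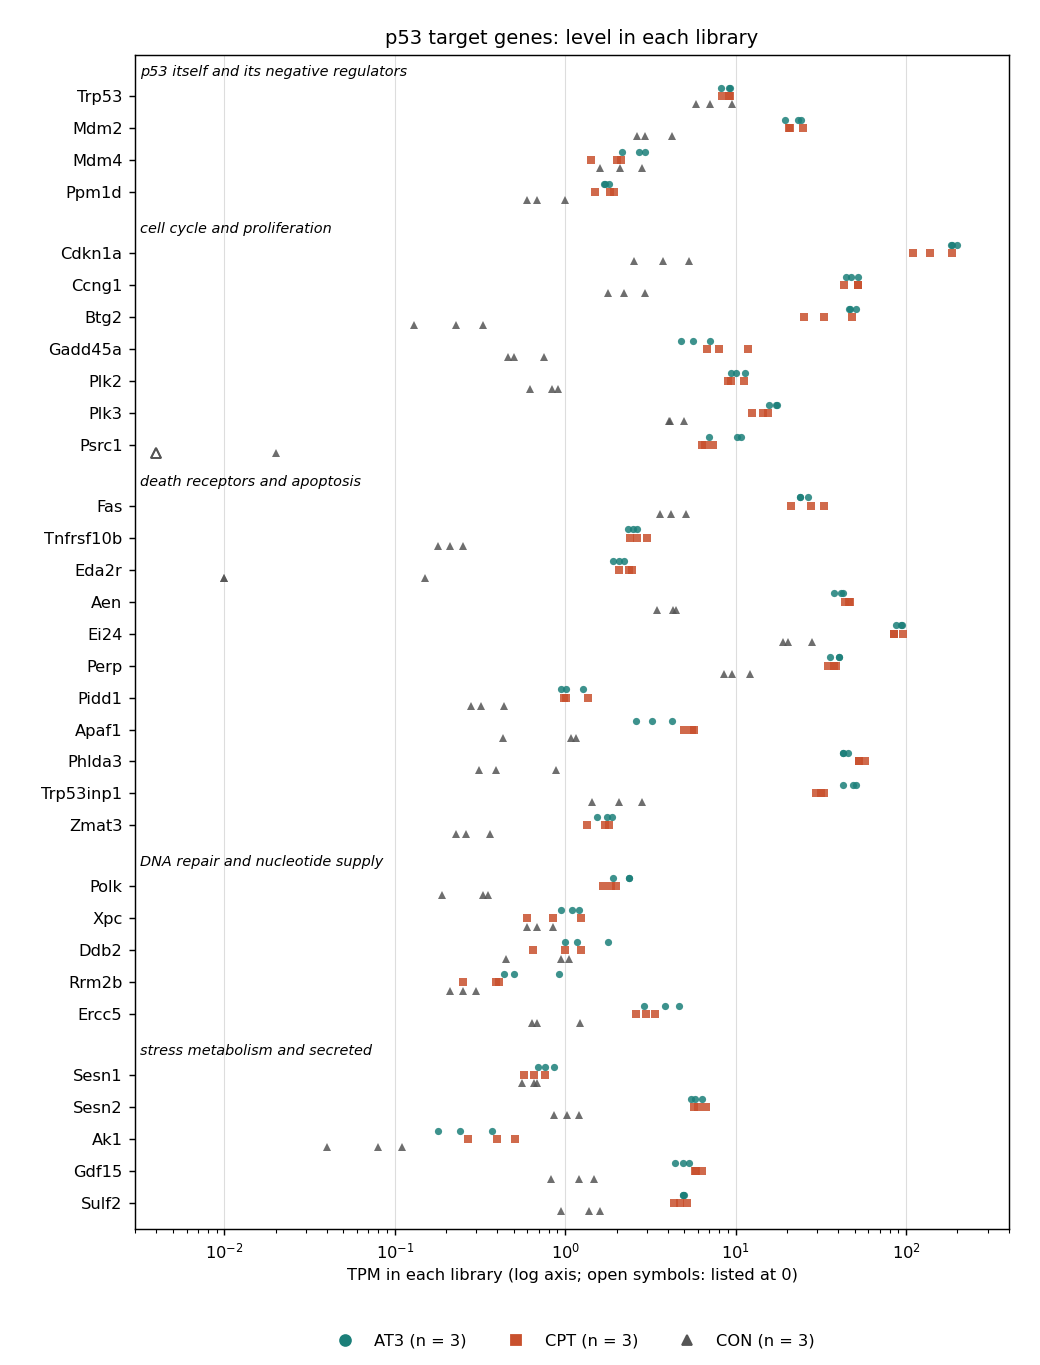
TPM of each member in each library on a log axis, grouped by role, with AT3 as circles, CPT as squares and CON as triangles; open triangles are libraries listed at 0. For most members the AT3 and CPT libraries lie together and above CON, with Cdkn1a from 110 to 198 TPM in both and 2.52 to 5.34 TPM in CON. The CPT and CON libraries of Trp53, Mdm4, Xpc, Ddb2, Sesn1 and Rrm2b overlap.

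Of the gene for p53 itself and its negative regulators, 2 rose and 2 fell in CPT against CON. This was so for 30% and 30.8% of all genes tested. Mdm2 (chr10:117688875-117710758), whose product degrades p53, measured 54.9, 54.8 and 50 CPM in AT3, 61.4, 64.9 and 53.1 CPM in CPT and 10.8, 12.5 and 11.7 CPM in CON. All CON libraries were far below the rest, and the log2 fold change in CPT against CON was 2.35 ± 0.11 (SE; adjusted p = 8.94e-11). Ppm1d, which encodes the phosphatase WIP1 that removes activating phosphates from p53, was less changed, at 5.12 ± 0.427 CPM in CPT and 3.34 ± 0.565 CPM in CON (SD, n = 3 each; log2 fold change 0.61 ± 0.16, adjusted p = 0.0042).

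Trp53 (chr11:69580359-69591873), which encodes p53, measured 13.1, 14.2 and 15.7 CPM in AT3, 14.9, 14.8 and 15.1 CPM in CPT and 18, 21.1 and 16.9 CPM in CON. The CPT libraries all lay below the CON libraries, and the log2 fold change was -0.33 ± 0.11 (adjusted p = 0.0167), but on the TPM scale its direction turned, to 0.25 with a pseudocount of 1 and 0.28 with one of 0.1, neither called. On that scale the median of all genes tested was itself shifted, by 0.29 and 0.51 for CPT against CON. The call on counts was also lost without CPT replicate 1, CPT replicate 2 or CON replicate 2, at -0.27, -0.31 and -0.22, and without the filter on low counts, at -0.24 (adjusted p = 0.134). Mdm4 (chr1:132959484-133030561), the other partner that restrains p53, measured 16, 13.5 and 9.73 CPM in CPT and 20.4, 25.0 and 20.5 CPM in CON. Its log2 fold change in CPT against CON was -0.75 ± 0.15 (adjusted p = 0.000613), and -0.15 and -0.21, not called, on the TPM scale.

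All 7 cell cycle and proliferation genes rose in CPT against CON, beside 30% of all genes tested, with a median log2 fold change of 3.84. Psrc1 is among the 7, and the filter favoured a difference in this gene, which passed only through AT3 and CPT. Cdkn1a (chr17:29090976-29100727), which encodes the cyclin-dependent kinase inhibitor p21, measured 339, 311 and 336 CPM in AT3, 217, 248 and 332 CPM in CPT and 10.3, 12.4 and 8.22 CPM in CON. Even the lowest CPT library was far above the highest CON library, and the log2 fold change was 4.68 ± 0.18 (adjusted p = 1.11e-11). Per length, it was the most abundant member, at 189 ± 8.01 TPM in AT3 and 145 ± 38.2 TPM in CPT, and the seventh in CON, at 3.86 ± 1.42 TPM.

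Btg2 (chr1:134075170-134079120), an antiproliferative gene whose product recruits the mRNA deadenylase complex, measured 118, 127 and 127 CPM in AT3, 73.9, 88.6 and 129 CPM in CPT and 0.955, 1.18 and 0.619 CPM in CON. Its log2 fold change in CPT against CON was 6.68 ± 0.24 (adjusted p = 7.24e-12), and 0.241% of all genes tested had a larger one. In both Btg2 and Cdkn1a CPT replicate 3 was the highest of the CPT libraries. Their coefficients of variation were 4.12% and 4.64% in AT3, 29.4% and 22.4% in CPT, and 30.6% and 20.1% at the low levels of CON.

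Ccng1 (chr11:40748552-40755311), which encodes cyclin G1, an activator of MDM2 through a phosphatase, was tighter, at 159, 170 and 159 CPM in AT3, 165, 183 and 182 CPM in CPT and 12.1, 13.5 and 11.3 CPM in CON. Its log2 fold change in CPT against CON was 3.84 ± 0.11 (adjusted p = 4.91e-13), with the tenth smallest p of all genes tested. Gadd45a, a stress sensor that inhibits CDK1 and binds PCNA, measured 4.66, 6.86 and 6.05 CPM in AT3, 7.67, 12.1 and 8.42 CPM in CPT and 0.843, 0.942 and 0.901 CPM in CON. Both injured groups lay above CON with no overlap, and the log2 fold change in CPT against CON was 3.38 ± 0.24 (adjusted p = 1.07e-08). Gadd45a shares 337 of its 1764 exonic bases with E230016M11Rik on the other strand, which averaged 10 counts in CPT and 30 in CON, against 275 and 18.3 for Gadd45a. No label says whether counting used strand, so without it reads of the shared bases cannot be assigned to either gene.

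The polo-like kinase genes differed from each other in size. Plk2 had a log2 fold change of 3.03 ± 0.13 (adjusted p = 5.83e-11) in CPT against CON, and Plk3 one of 1.08 ± 0.14 (adjusted p = 6.57e-06). Psrc1 (chr3:108383839-108388231), which encodes a microtubule-binding protein, had 238, 275 and 199 counts in CPT and 0, 1 and 0 counts in CON. With 1 count in CON in all, the ratio of CPT to CON was 503, with an exact 95% interval of 90.0 to 19900 that covers counting error only.

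All 11 genes of death receptors and apoptosis rose in CPT against CON, beside 30% of all genes tested. Their median log2 fold change was 2.08, with a range of 1.04 to 6.28. For Eda2r, one of the 11, the filter favoured a difference, since this gene passed only through AT3 and CPT. Phlda3 (chr1:135766119-135769136), whose product keeps the survival kinase AKT from the membrane, measured 40.9, 40.6 and 45.6 CPM in AT3, 56.8, 57.5 and 62.1 CPM in CPT and 0.787, 0.746 and 0.732 CPM in CON. Its 3 groups did not overlap at all, and its log2 fold change in CPT against CON was 6.28 ± 0.14 (adjusted p = 2.28e-14), the fifth smallest p of all genes tested. Its counts in CON were 14, 19 and 13.

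Eda2r, among the receptors of this role, is the receptor for the A2 form of ectodysplasin. It had 253, 271 and 224 counts in AT3, 316, 291 and 265 counts in CPT and 1, 7 and 2 counts in CON. The ratio of CPT to CON was 61.6 with an exact 95% counting interval of 33.3 to 129. Tnfrsf10b, the mouse TRAIL receptor, had a log2 fold change of 3.37 ± 0.17 (adjusted p = 2.12e-10) in CPT against CON. Fas, which encodes the receptor for FAS ligand, had one of 2.08 ± 0.13 (adjusted p = 1.82e-09), with 30.7, 43.8 and 36.2 CPM in CPT and 8.43, 8.99 and 8.78 CPM in CON. All 3 receptors were thus higher in every CPT library than in any CON library, and Fas, which had the highest level of the 3 per length in CON (4.30 ± 0.78 TPM), had the smallest fold.

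Trp53inp1 (chr4:11156431-11174379), a p53 cofactor that also acts in autophagy, measured 254, 261 and 240 CPM in AT3, 178, 174 and 182 CPM in CPT and 17.7, 20.4 and 14.4 CPM in CON. Again the 3 groups stood apart, here with AT3 the highest, and the log2 fold change in CPT against CON was 3.34 ± 0.12 (adjusted p = 6.73e-12). Aen, an exonuclease of apoptotic nuclei, measured 95.9, 92.4 and 94.1 CPM in CPT and 13.5, 11.6 and 12.2 CPM in CON (log2 fold change 2.92 ± 0.10, adjusted p = 3.52e-12). Aen also held its libraries close together, with a coefficient of variation of 1.87% in CPT.

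The other members of this role had smaller folds in CPT against CON. The log2 fold change was 1.88 ± 0.16 for Zmat3, which encodes an RNA-binding zinc finger protein, and 1.86 ± 0.27 for Apaf1, the core of the apoptosome. It was 1.43 ± 0.09 for Ei24, a protein of the endoplasmic reticulum, and 1.30 ± 0.09 for Perp, a membrane protein of apoptosis and desmosomes. Pidd1, the scaffold of the caspase-2 platform, had the smallest, 1.04 ± 0.22. Their adjusted p ranged up to 0.000783 for Pidd1. Ei24 and Perp were the members with the highest level per length in CON, at 22.3 ± 4.89 and 10 ± 1.82 TPM.

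DNA repair and nucleotide supply was the role with the fewest calls, 2 of 5 higher and 3 not called in CPT against CON. The share of all genes tested that were higher was 30%. Polk, which encodes the translesion polymerase kappa, measured 7.6, 8.34 and 7.88 CPM in CPT and 2.25, 1.84 and 1.46 CPM in CON (log2 fold change 2.10 ± 0.16, adjusted p = 2.18e-08). Ercc5, which encodes the XPG endonuclease of nucleotide excision repair, had a log2 fold change of 1.26 ± 0.19 (adjusted p = 2.68e-05). Both were higher in every CPT library than in any CON library.

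Xpc and Ddb2 encode lesion sensors of nucleotide excision repair that are known as p53 targets in human cells. Xpc measured 2.4, 3.08 and 4.5 CPM in CPT and 4.89, 3.3 and 4.0 CPM in CON, with overlapping groups and a log2 fold change of -0.28 (95% interval -0.76 to 0.20, adjusted p = 0.291). Without CPT replicate 3 it was called, at -0.54 (adjusted p = 0.0448). Ddb2 measured 1.41, 2.05 and 2.31 CPM in CPT and 1.52, 2.75 and 3.27 CPM in CON, again overlapping, with a log2 fold change of -0.39 (95% interval -1.02 to 0.24). Ddb2 shares 652 of its 2736 exonic bases with Acp2 on the other strand, and the same limit holds for reads of those bases. Acp2 averaged 728 counts in CPT and 442 in CON, against 55.3 and 51.7 for Ddb2.

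Rrm2b, the ribonucleotide reductase subunit that p53 induces to supply nucleotides for repair, measured 1.77, 2.13 and 1.76 CPM in AT3, 0.883, 1.56 and 1.5 CPM in CPT and 1.12, 1.22 and 1.86 CPM in CON. CPT and CON overlapped, and the log2 fold change was -0.08 (95% interval -0.72 to 0.56). Rrm2b shares 734 exonic bases with the antisense gene Gm49085, which averaged 3 counts in CPT and 5 in CON.

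Of the 5 genes of stress metabolism and secreted products, 4 rose and 1 was not called in CPT against CON. Beside them 30% of all genes tested rose, and for Ak1, one of the 4, the filter favoured a difference. Sesn2 and Sesn1 encode sestrins, which restrain mTORC1 signalling, and Sesn2 alone was called. Sesn2 measured 22.7, 19.6 and 22.9 CPM in CPT and 5.62, 5.5 and 5.4 CPM in CON, a log2 fold change of 1.98 ± 0.11 (adjusted p = 8.66e-10). Sesn1 measured 1.59, 1.93 and 1.65 CPM in CPT and 2.75, 2.2 and 2.59 CPM in CON, with no overlap but no call, at -0.53 ± 0.23 (adjusted p = 0.0524), and was called without CON replicate 2 (-0.63, adjusted p = 0.045). On the TPM scale its value was 0.03 with a pseudocount of 1 and 0.05 with one of 0.1, not called.

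Gdf15, which encodes a secreted stress cytokine, had a log2 fold change of 1.80 ± 0.16 (adjusted p = 1.51e-07), with 8.23, 8.16 and 7.77 CPM in CPT and 2.92, 2.2 and 1.86 CPM in CON. Sulf2, an extracellular sulfatase of heparan sulfate, had one of 1.34 ± 0.12 (adjusted p = 2.14e-07). It shares 154 of its 5871 exonic bases with Ncoa3 on the other strand, which averaged 166 counts in CPT and 237 in CON, against 646 and 180 for Sulf2. Ak1, an adenylate kinase, had few counts, with 16, 23 and 22 counts in CPT and 2, 5 and 7 counts in CON. Its log2 fold change was 1.60 ± 0.50 (adjusted p = 0.0118), and the call was lost without CON replicate 1 (1.31, adjusted p = 0.0524). Ak1 passed the filter only through AT3 and CPT, which favoured a difference but did not force a call.

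**Figure D3:**
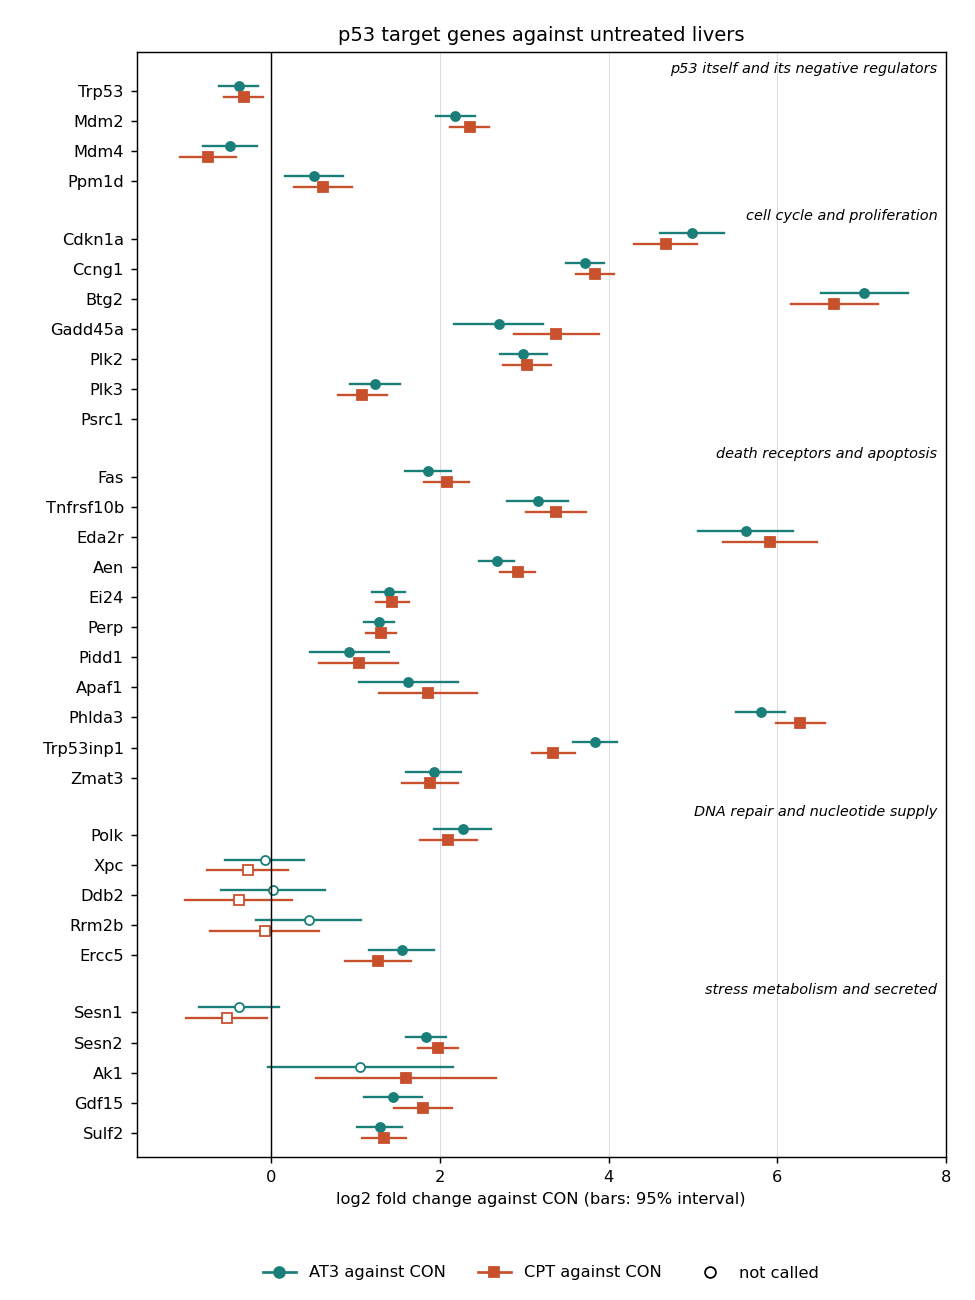
Log2 fold change of each member against CON, for AT3 (circles) and CPT (squares), with 95% intervals and open symbols for members not called; Psrc1 is left out because CON held 1 count. Most members lie right of 0, up to 6.68 in CPT and 7.03 in AT3 for Btg2, while Trp53 and Mdm4 lie left of 0, a direction that turned on the TPM scale for Trp53 in both groups and for Mdm4 in AT3.

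AT3 against CPT asks how livers titled AT3 differ from those titled CPT, under the same treatment label. Of the 32 members, 1 rose, 2 fell and 29 were not called. Across all genes tested 2.46% rose and 2.22% fell, 4.68% in all. The median log2 fold change of the members was -0.05, against 0.00 over all genes tested. For 26 of the 29 members not called, the 95% interval lay within 2-fold in either direction, and for 16 within 1.5-fold. The intervals of Ddb2, Rrm2b and Ak1 reached beyond 2-fold.

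Trp53inp1 rose, with the AT3 libraries at 240 to 261 CPM and the CPT libraries at 174 to 182 CPM, and a log2 fold change of 0.50 ± 0.11 (adjusted p = 0.0159). This call was lost without AT3 replicate 1, AT3 replicate 2 or CPT replicate 2, at 0.49, 0.47 and 0.48 (adjusted p 0.0649 to 0.0783). Phlda3 fell, with 40.6 to 45.6 CPM in AT3 and 56.8 to 62.1 CPM in CPT, a log2 fold change of -0.47 ± 0.09 (adjusted p = 0.00754). Without AT3 replicate 1 or AT3 replicate 2 its value was -0.44 and the call was lost (adjusted p = 0.0636 and 0.0576).

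Gadd45a fell as well, at 5.86 ± 1.12 CPM in AT3 and 9.40 ± 2.38 CPM in CPT (SD, n = 3 each), with a log2 fold change of -0.69 ± 0.18 (adjusted p = 0.0397). Its call was lost without any 1 of the AT3 libraries, CPT replicate 2 or CON replicate 1, with values of -0.45 to -0.81, and with only the 6 libraries compared (-0.70, adjusted p = 0.0552). None of the 3 calls held on the TPM scale, where 45 genes in all were called with a pseudocount of 1, yet each kept its direction there. The sizes remained well under the distance of these genes from CON, since in AT3 against CON Trp53inp1 stood at 3.84 ± 0.12, Phlda3 at 5.80 ± 0.14 and Gadd45a at 2.70 ± 0.25.

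Groups that did not overlap were found for 3 members higher in AT3 than CPT (Trp53inp1, Rrm2b and Psrc1) and 6 lower (Phlda3, Gadd45a, Tnfrsf10b, Aen, Eda2r and Gdf15), where the shares of all genes tested were 14.5% and 12.5%. Aen measured 80.0, 80.7 and 76.6 CPM in AT3 and 95.9, 92.4 and 94.1 CPM in CPT, a log2 fold change of -0.25 ± 0.09 that missed the call (adjusted p = 0.11). Gdf15 measured 6.86, 6.21 and 5.87 CPM in AT3 and 8.23, 8.16 and 7.77 CPM in CPT (-0.35 ± 0.14, adjusted p = 0.162). Psrc1 measured 11.6, 10.8 and 8.74 CPM in AT3 and 8.41, 8.56 and 7.65 CPM in CPT (0.34 ± 0.14, adjusted p = 0.173).

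The calls of Cdkn1a and Btg2 changed without CPT replicate 3. With all libraries, Cdkn1a had a log2 fold change of 0.31 in AT3 against CPT (95% interval -0.00 to 0.62, adjusted p = 0.244) and Btg2 one of 0.35 (0.02 to 0.69, adjusted p = 0.213). Without CPT replicate 3 both were called higher in AT3, at 0.50 (adjusted p = 0.0211) and 0.61 (adjusted p = 0.00441). Btg2 was also called with all libraries when no filter on low counts was used (0.36, adjusted p = 0.0326). The number of all genes called also moved, to 1316 without that library, against 641 with it.

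Among the regulators, Mdm2 had a log2 fold change of -0.17 in AT3 against CPT (95% interval -0.38 to 0.04), Trp53 one of -0.06 (-0.29 to 0.17) and Ppm1d one of -0.10 (-0.42 to 0.22). Mdm4 stood at 0.26 (-0.07 to 0.59). None of these was called. All 5 DNA repair genes had values above 0, from 0.17 for Polk to 0.52 for Rrm2b, with none called. The 95% interval of each included 0, and the median over all genes tested was 0.

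**Figure D4:**
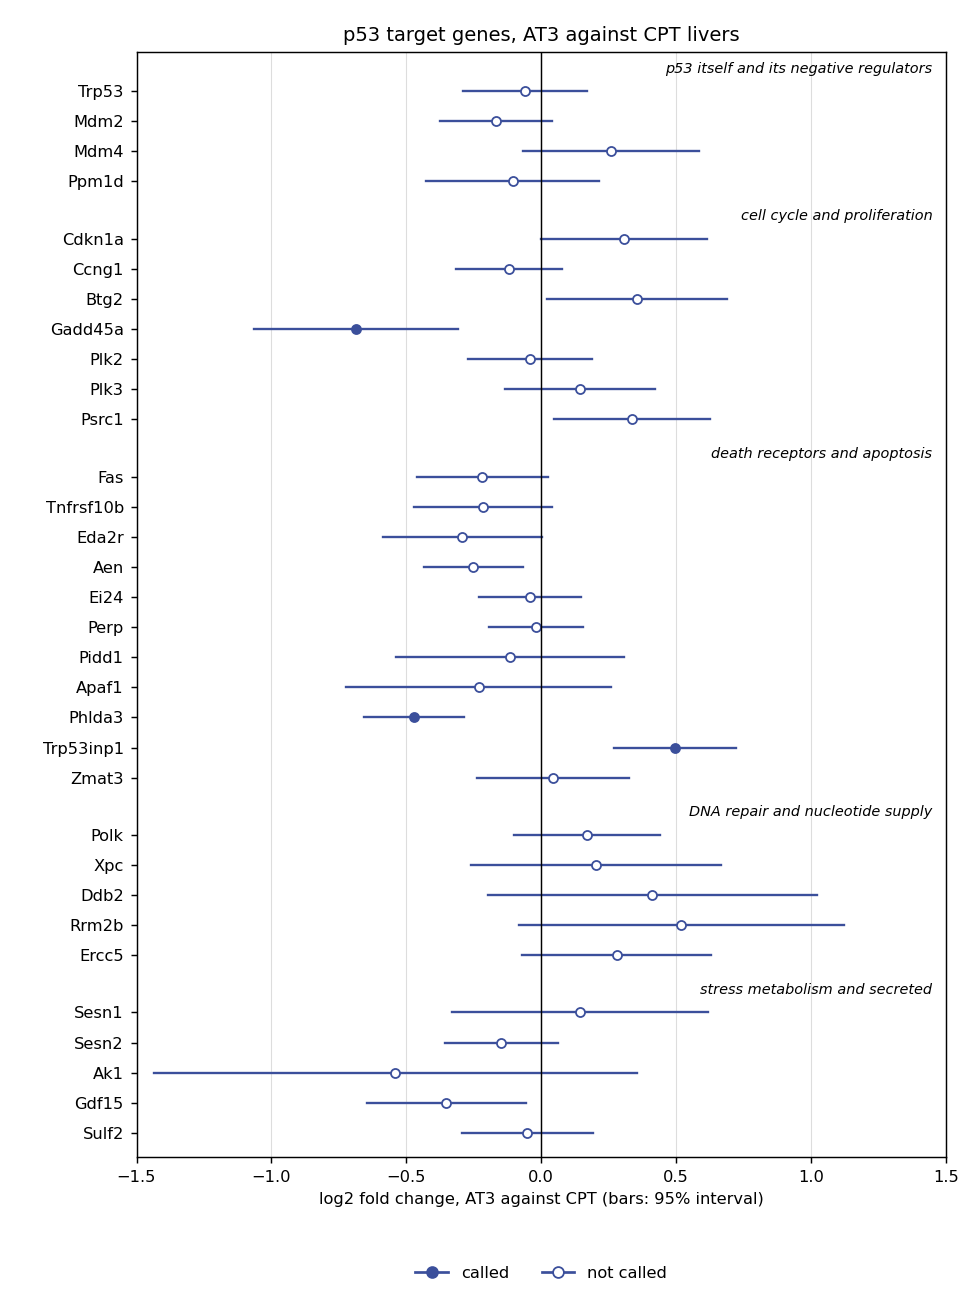
Log2 fold change of each member in AT3 against CPT with 95% intervals, filled where called. Trp53inp1 lies at 0.50, Phlda3 at -0.47 and Gadd45a at -0.69, and the intervals of most other members include 0.

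In AT3 against CON, which shares its CON libraries with CPT against CON, 25 members rose, 2 fell and 5 were not called. Across all genes tested 31.5% rose and 32.9% fell, and the median log2 fold change was 1.73 for the members and -0.04 for all. The members not called were Sesn1, Xpc, Ddb2, Rrm2b and Ak1. Eda2r and Psrc1 are among the 25, and the filter favoured a difference in both. Trp53 (-0.39 ± 0.11, adjusted p = 0.00567) and Mdm4 (-0.49 ± 0.15, adjusted p = 0.0105) fell, but their direction turned on the TPM scale, to 0.24 and 0.20 with a pseudocount of 1. There the median of all genes tested was shifted by 0.32. The Mdm4 call was lost without AT3 replicate 3 or CON replicate 2 (-0.39 and -0.38), and that of Ppm1d (0.50 ± 0.16, adjusted p = 0.0127) without CON replicate 1 (0.39). Ak1 was called without CON replicate 3 (1.58, against 1.06 with it).

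Btg2 had the largest fitted value after Psrc1, 7.03 ± 0.24 (adjusted p = 5.01e-12), followed by Phlda3, by Eda2r at 5.63 ± 0.27 and by Cdkn1a at 4.99 ± 0.18. Psrc1 had 941 counts in AT3 and 1 in CON, a ratio of 636 with an exact 95% counting interval of 114 to 25100.

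Per length, the order of levels differed between injured and untreated livers. In AT3 and CPT Cdkn1a came first and Ei24 second, at 91.8 ± 4.08 TPM in AT3 and 88.6 ± 6.45 TPM in CPT. Trp53 was the fourteenth in AT3 at 8.87 ± 0.571 TPM, the thirteenth in CPT at 8.91 ± 0.517 TPM and the third in CON at 7.46 ± 1.83 TPM, where it followed Ei24 and Perp. The TPM of Trp53 thus overlapped between the groups while its rank was lower in AT3 and CPT. Phlda3 and Btg2, at 0.527 ± 0.309 and 0.23 ± 0.1 TPM in CON, had 43.5 ± 1.59 and 47.9 ± 2.47 TPM in AT3 and 54.4 ± 2.37 and 35.5 ± 11.8 TPM in CPT. Rrm2b, Ak1, Sesn1 and Xpc were at or below 1.24 TPM in every library.

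Members with a short genomic span had the higher median. All 10 members spanning under 10 kb in the GENCODE M21 annotation rose in CPT against CON, with a median log2 fold change of 3.61, against 0.08 for the 4058 tested genes of that span, of which 34.2% rose and 27% fell. Of 11 members spanning 10 to 30 kb, 8 rose and 1 fell, with a median of 1.60 against 0.09 for all tested genes of that span, of which 33.8% rose and 25.8% fell. Of 11 spanning 30 to 100 kb, 8 rose and 1 fell, with a median of 1.34 against -0.08, where 27.3% of all rose and 33% fell. In Psrc1 under 10 kb, Ak1 at 10 to 30 kb and Eda2r at 30 to 100 kb the filter favoured a difference. No member spans 100 kb or more, the class in which the median of 1461 genes was -0.47. Spearman's rho between span and log2 fold change was -0.46 across the 32 members and -0.15 across 13432 tested genes, which share libraries and are not independent replicates.

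**Figure D5:**
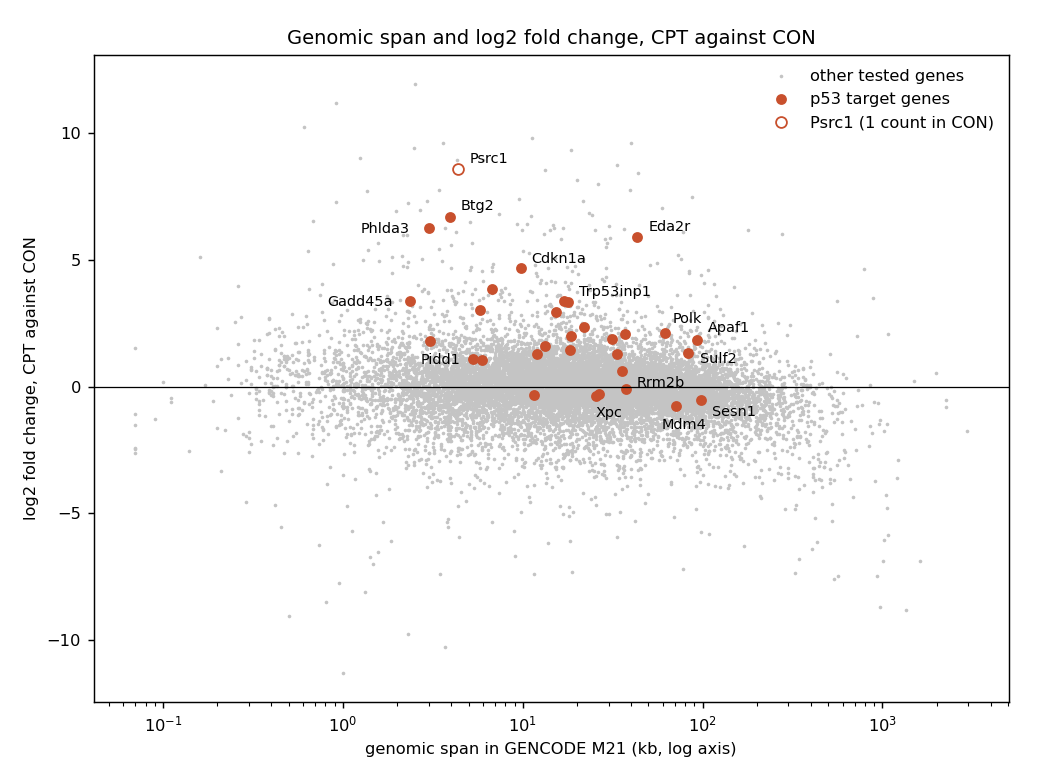
Log2 fold change in CPT against CON by genomic span in kb (log axis), for the p53 target genes (orange) and all other tested genes (grey); the open circle is Psrc1, whose fitted value rests on 1 CON count. The members under 10 kb range from Pidd1 at 1.04 to Btg2 at 6.68 and Psrc1 above it, and Eda2r, at 43.4 kb, lies at 5.92.

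Other genes of the pathway were followed in lists. Of 40 further p53 targets, 33 were tested, and 21 rose, 4 fell and 8 were not called in CPT against CON. Their median log2 fold change was 0.66. Over all genes tested 30% rose and 30.8% fell, with a median of -0.02. Inka2, an inhibitor of the kinase PAK4, averaged 12.4 ± 0.243 CPM in CPT and 0.221 ± 0.0623 CPM in CON (log2 fold change 5.83 ± 0.20, adjusted p = 3.82e-12). Siva1, a pro-apoptotic adaptor, had a log2 fold change of 2.74 ± 0.14, and Dcxr, a carbonyl reductase of liver, one of 1.58 ± 0.10. The count of 4 that fell became 2 without CPT replicate 1 or CON replicate 2.

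In AT3 against CPT 2.46% of all genes tested rose and 2.22% fell. Of the 33 further targets 1 rose, Lpin1, a phosphatidate phosphatase of lipid synthesis, at 0.78 ± 0.17 (adjusted p = 0.017). Siva1 (-0.55 ± 0.12, adjusted p = 0.016) and Inka2 (-0.40 ± 0.11, adjusted p = 0.0486) fell. Each of these 3 calls was lost without any 1 of the AT3 libraries or CPT replicate 2, and that of Inka2 also without CPT replicate 1 or CON replicate 1, with the replicate block (adjusted p = 0.084), by DESeq2 (adjusted p = 0.0832), with DESeq2's size factors (adjusted p = 0.0513) and without the filter (adjusted p = 0.0731). On the TPM scale none of the 3 genes was called with either pseudocount. The count called higher was 3 without CPT replicate 3, and 2 by DESeq2 or without the filter. In AT3 against CON the list gave 21 higher, 4 lower and 8 not called, beside 31.5% higher and 32.9% lower of all genes tested.

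Of 25 kinases and cofactors that act on p53, 22 were tested, with 6 higher, 6 lower and 10 not called in CPT against CON and a median of -0.28, beside 30% higher and 30.8% lower of all genes tested. Mapk14, the stress kinase p38, averaged 38.3 ± 6.11 CPM in CPT and 16.9 ± 0.985 CPM in CON (log2 fold change 1.18 ± 0.12, adjusted p = 4.38e-07). Rpl11, a ribosomal protein that binds MDM2, had one of 0.75 ± 0.09, and Ep300, an acetyltransferase of p53, one of -0.88 ± 0.13, which was not called on the TPM scale (-0.13 and -0.23). None of the 22 was called in AT3 against CPT, where 1 was called higher by DESeq2, without the filter and without CPT replicate 3.

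Cell cycle genes that p53 represses through p21 and the DREAM complex were mostly too low to test. Of 30, 13 were tested, with 1 higher, 3 lower and 9 not called in CPT against CON. The shares of all genes tested were 30% higher and 30.8% lower. Mcm2 and Mcm7, subunits of the replicative helicase, had log2 fold changes of -1.57 ± 0.39 (adjusted p = 0.00268) and -0.56 ± 0.17 (adjusted p = 0.00877), and Cenpa, the centromeric histone, one of -0.98 ± 0.30 (adjusted p = 0.0104). The call of Mcm7 was lost without CPT replicate 1 or CON replicate 1, and that of Cenpa without CPT replicate 2. The 1 higher, Mcm4, was lost without CON replicate 1 or CON replicate 3. On the TPM scale with a pseudocount of 0.1, Mcm2, Mcm7 and Cenpa were not called (-0.77, -0.38 and -0.12). The list there had 3 higher and 0 lower. Mki67, the usual marker of dividing cells, was at or below 0.281 CPM in all libraries. None of the 13 was called in AT3 against CPT.

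Markers of liver cell types moved with the groups too. The summed level of 11 hepatocyte markers was 115000 to 123000 CPM in AT3, 79500 to 102000 CPM in CPT and 77500 to 84200 CPM in CON. Alb made up much of it, at 53900 ± 2470 CPM in AT3 and 37200 ± 6410 CPM in CPT. Of the 11, 5 rose, 3 fell and 3 were not called in CPT against CON, beside 30% and 30.8% of all genes tested that rose and fell. Stellate cell markers summed to 52.0 to 69.6 CPM in AT3, 77.3 to 86.9 CPM in CPT and 388 to 458 CPM in CON, and 11 of 12 fell in CPT against CON. Sinusoidal endothelial markers summed to 28.7 to 37.8 CPM in AT3, 23.7 to 33.8 CPM in CPT and 128 to 135 CPM in CON, and 10 of 12 fell. Neutrophil markers summed to 14 to 14.5 CPM in AT3, 25.4 to 53 CPM in CPT and 4.71 to 5.45 CPM in CON. Of the 7 tested, 5 rose in CPT against CON and 3 fell in AT3 against CPT, beside 30% and 2.22% of all genes tested.

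Erythroid markers summed to 38.4 to 44.5 CPM in AT3, 42.7 to 50.9 CPM in CPT and 798 to 908 CPM in CON. All 5 of them that were tested fell in CPT against CON, beside 30.8% of all genes tested. The globin gene Hba-a2 fell further than the sum, to 0.94 ± 0.204 CPM in CPT from 338 ± 24.7 CPM in CON. Kupffer cell and macrophage markers summed to 41.4 to 45.9 CPM in AT3, 33.9 to 49.6 CPM in CPT and 53.9 to 66.1 CPM in CON. Of these 12 markers, 2 rose, 6 fell and 4 were not called in CPT against CON. Over all genes tested 30% rose and 30.8% fell. Cholangiocyte markers, of which Cftr was at 0, gave 74.9 to 83.4 CPM in AT3, 68.6 to 77.3 CPM in CPT and 69.7 to 75.9 CPM in CON, and lymphocyte markers were at most 1.18 CPM in AT3, 1.28 CPM in CPT and 4.95 CPM in CON. The part of these shifts, and of the mitochondrial share, in the values of the p53 target genes was not tested. In bulk liver fewer cells of a type and less RNA per cell cannot be told apart.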

How the data were processed

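The 9 mouse liver libraries were made with the SMARTER mRNA-Seq kit, as the labels' protocols state. Estimated counts and TPM of every gene were deposited by the authors. Which aligner and counter made them is not given in the sources used here. Builds named in the submitters' processing notes are GRCm38, GRCm39 and mm10, without saying what each was used for. Between 7.96% and 9.55% of the deposited estimated counts in a library were not whole, and all were rounded. The 3 columns of group means were not used, and 0 columns of other samples were found.

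Counts were tested with edgeR 4.0.16 in R 4.3.3, by its quasi-likelihood test, after TMM scaling and filterByExpr. All 9 libraries entered 1 model of the 3 groups, and p-values were adjusted by Benjamini-Hochberg over 13686 genes. Groups came from the sample titles. Libraries of a group differed by more than sampling noise, at a chi-square per degree of freedom of 7.35 to 104. Of tested gene identifiers 98.1% were found in GENCODE M21 (GRCm38), which gave coordinates and spans; promoter windows came from RefSeq (GRCm38.p6). The edgeR, limma and DESeq2 tests were tested on simulated data. Alternatives were DESeq2 1.42.0, its size factors in edgeR, no filter, limma-trend (limma 3.58.1) on log2(TPM + 1) and log2(TPM + 0.1) of the authors' TPM, no mitochondrial and 10 most abundant genes, only the 6 libraries compared, a replicate block and each library left out.

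Replicate numbers are shared between groups, but no label says that they pair animals, and the correlations of same-numbered libraries lay between -0.038 and 0.076, so the main tests had no block. All 32 members are named, by role, and from each pathway list up to 3 called genes with the smallest p per comparison. The members, lists and tests were chosen with earlier results of these data known. Intervals of count ratios cover counting error only.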

Additional observations from a re-analysis of the deposited data

How the results depend on the processing

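The count of members called higher was 26 in CPT against CON under every alternative setting and 25 to 26 with a library left out, and in AT3 against CON 25 to 27 and 24 to 26. The other counts moved. Members called lower in CPT against CON were 2, but 1 without the filter on low counts, 0 on log2(TPM + 1) and 0 on log2(TPM + 0.1), and 1 to 3 with a library left out. In AT3 against CON they were 2, but 0 and 0 on TPM and 1 to 2 with a library left out. In AT3 against CPT the 1 called higher became 2 without the filter, 0 and 0 on TPM, and 0 to 3 with a library left out; the 2 called lower became 0 and 0 on TPM, 1 with only the 6 libraries compared, and 0 to 2 with a library left out. On log2(TPM + 1) and log2(TPM + 0.1), where the median of all genes shifts, 6631 and 6665 of all tested genes were called higher and 1604 and 1582 lower in CPT against CON, against 4107 and 4219 on counts. In AT3 against CON they were 7017 and 7037 higher and 1698 and 1679 lower, against 4312 and 4501, and in AT3 against CPT 29 and 20 higher and 16 and 12 lower, against 337 and 304; without the filter the last pair became 617 and 557. With a library left out, all tested genes called ranged from 3907 to 4341 higher and 3850 to 4201 lower in CPT against CON, 93 to 766 and 69 to 550 in AT3 against CPT, and 4077 to 4651 and 4131 to 4720 in AT3 against CON. Among members called on counts, directions reversed on log2(TPM + 1) and log2(TPM + 0.1) for Trp53 in CPT against CON (0.25 and 0.28), Trp53 in AT3 against CON (0.24 and 0.27) and Mdm4 in AT3 against CON (0.20 and 0.28). Signs also turned for members called on neither scale, at 0.03, 0.14, 0.11 and 0.11 on log2(TPM + 1) for Sesn1, Xpc, Ddb2 and Rrm2b in CPT against CON and at 0.12 and 0.29 for Sesn1 and Xpc in AT3 against CON. In AT3 against CPT they turned for Mdm2, Ei24, Perp, Plk2 and Sulf2, to values of 0.01 to 0.07. The cause of these changes was not tested. With the replicate number as a block, members called were 26 higher and 2 lower in CPT against CON, 1 and 2 in AT3 against CPT and 25 and 2 in AT3 against CON, as without it, while all genes called in AT3 against CPT were 451 against 641. Each AT3 library correlated best with the CPT library of its own number, at 0.052 to 0.076, which is a hint from the data and not the design. Among the genes of the other pathway lists that are named, none reversed, and 86 of 510 counts of those lists moved by over 1.5 times. Rrm2b and Ak1 in AT3 against CON were called on both TPM scales only, apart from Ak1 without CON replicate 3.

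Depth limits the members with few counts. Ak1 had 2 to 23 counts in a library, Psrc1 1 count and Eda2r 10 counts in all of CON, so the folds of these genes are known only within wide bounds. A two-sided exact permutation test of 3 libraries against 3 reaches p = 0.1 at the lowest.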

Other observations

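Other stress programmes share members with the p53 target genes. Of 24 immediate early genes, 19 were tested, 3 of them p53 target genes (Btg2, Plk3 and Gadd45a). In CPT against CON 16 rose and 3 fell, beside 30% and 30.8% of all genes tested. Junb, a subunit of the AP-1 transcription factor, averaged 57.5 ± 0.999 CPM in CPT and 5.69 ± 0.905 CPM in CON (SD, n = 3 each; log2 fold change 3.34 ± 0.11, adjusted p = 3.82e-12). Egr1, a growth and stress response factor, had 39.4 ± 9.66 CPM in CPT and 1.54 ± 0.596 CPM in CON (4.73 ± 0.24), and Fosl2, another AP-1 subunit, had a log2 fold change of 1.78 ± 0.15. In AT3 against CPT 2 rose, Nr4a1, an orphan nuclear receptor, at 1.60 ± 0.31 (adjusted p = 0.00987) and Egr1 at 0.68 ± 0.17 (adjusted p = 0.0328), and the 1 that fell was Gadd45a. The shares of all genes tested were 2.46% higher and 2.22% lower. Nr4a1 lost its call without AT3 replicate 1 and by DESeq2 (adjusted p = 0.0606). Egr1 lost its call without any 1 of the AT3 libraries, CPT replicate 1, CPT replicate 2 or CON replicate 1, and by DESeq2 (adjusted p = 0.165). On the TPM scale Egr1 was not called with either pseudocount, and Nr4a1 was not called with one of 0.1. Of the list, 4 were called higher without CPT replicate 3 or without the filter on low counts, and 0 by DESeq2.

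Of 19 targets of the stress factors ATF4 and CHOP, 16 were tested, including Sesn2 and Gdf15. In CPT against CON 6 rose, Sesn2 and Gdf15 among them, 3 fell and 7 were not called. The shares of all genes tested were 30% higher and 30.8% lower. On the TPM scale 10 of the list were called higher and 1 lower, with either pseudocount. Atf3, a stress transcription factor, averaged 3.08 ± 0.77 CPM in CPT and 0.438 ± 0.0397 CPM in CON (log2 fold change 2.79 ± 0.29, adjusted p = 8.53e-07), and Ddit3, which encodes CHOP, had one of 1.49 ± 0.22. Shmt2, a mitochondrial enzyme of one-carbon metabolism, had one of -1.02 ± 0.10 (adjusted p = 2.18e-07). In AT3 against CPT 2.46% of all genes tested rose. Of the list 2 rose, Fgf21, a liver hormone of fasting and stress, at 0.80 ± 0.18 (adjusted p = 0.0203) and Trib3, a pseudokinase, at 0.76 ± 0.18 (adjusted p = 0.0276). Both calls were lost without AT3 replicate 1, AT3 replicate 2, CPT replicate 1 or CPT replicate 2, and that of Fgf21 also without AT3 replicate 3, while 4 genes of the list were called higher without CPT replicate 3. The call of Trib3 was also lost with the replicate block (adjusted p = 0.0516), which left 1 gene of the list called higher. In AT3 against CPT neither Fgf21 nor Trib3 was called on the TPM scale, with either pseudocount.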
